A study of Homo sapiens with 2 samples.

Results

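The genes described here encode the Wnt ligands, their receptors, inhibitors and intracellular relay, together with genes known as transcriptional targets of beta-catenin. They were measured by RNA-seq in H460 cells, an established human large-cell lung cancer line, as gene counts in 2 libraries. One library was made from H460 cells with the pSin-puro vector (genotype control) and the other from cells in which pSin-puro delivered PKP2 (overexpression of PKP2), both at passage 5, with 1 library per group. Members were protein-coding genes chosen by symbol: every WNT, FZD, DVL, DKK and SFRP gene in the files plus a fixed set of named pathway and target genes. The rule itself used no measured value, but it was set with earlier results of these data known. No listed gene was at 0 in both libraries, and 51 of the 22965 listed genes were members. Whether the cells were a pool or a clone is not given in the sources used here.

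The vector library held 23513304 counts and the PKP2 library 20319137. PKP2 itself, an armadillo-repeat protein of desmosomes, had 181 counts in the vector sample and 1330 in the PKP2 sample, 8.66-fold higher as CPM (counts scaled to library size) and in the direction of the label. A library is also called a sample below. Among lung epithelial lineage markers, SFTPB, SFTPC and SCGB1A1 were not listed, NKX2-1 had 10 and 3 counts and NAPSA 8 and 0. Of 6 epithelial markers CDH1 was not listed, and the 5 listed summed to 1230 and 1237 CPM. EPCAM had only 28 and 16 counts (ratio -0.57), so this near-equal sum comes almost wholly from keratin genes that went opposite ways. KRT19 was higher in the PKP2 sample (6501 and 11645 counts, ratio 1.08), while KRT8 (16537 and 9369, ratio -0.58), KRT18 (ratio -0.41) and KRT7 (ratio -0.76) were lower. Neuroendocrine markers summed to 38.5 and 43.3 CPM, with NCAM1 at 262 and 455 counts (ratio 1.03), CHGA at 541 and 347 (-0.40), SYP at 81 and 65 (-0.08) and INSM1 at 30 and 5 (-2.35). Of 6 fibroblast markers COL1A2, DCN and PDGFRA were not listed, and the other 3 summed to 11.3 and 13.8 CPM, with COL1A1 at 132 and 48 counts, PDGFRB at 111 and 208 and LUM at 24 and 22. The endothelial PECAM1 and CDH5 and the leukocyte PTPRC and CD3E were not listed, while CD14 had 90 and 23 counts (ratio -1.73) and the listed leukocyte markers summed to 3.96 and 1.14 CPM. The part of these markers in the members' ratios was not tested. The study asked which genes lie downstream of PKP2. Ratios are log2 ratios of CPM, PKP2 library over vector library, and their bracketed 95% intervals are exact binomial (Clopper-Pearson) intervals that cover counting error only. No difference has a replicate check.

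In Wnt signalling, a secreted and lipid-modified Wnt protein binds a Frizzled receptor and an LRP co-receptor, and the signal passes through Dishevelled to the complex that marks beta-catenin for destruction. Beta-catenin that escapes destruction enters the nucleus and binds TCF/LEF factors at target genes. Several targets, among them AXIN2, RNF43, ZNRF3, NKD1 and NOTUM, encode inhibitors that act back on the pathway. Beta-catenin also sits at adherens junctions, and like plakophilin 2 it is an armadillo-repeat protein.

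Of the 51 members, 40 reached a mean of 10 counts over the 2 libraries, the minimum used for calls. Of these, 6 were at least 2-fold lower in the PKP2 sample, 0 were at least 2-fold higher and 34 lay within 2-fold. Over all 15991 genes at or above that minimum, 4.61% were at least 2-fold lower and 2.47% at least 2-fold higher. The lower members were the ligand WNT11, the secreted inhibitor SFRP4, the receptor FZD2, the repressor-type factor TCF7L1, the ubiquitin ligase RNF43 and the feedback inhibitor AXIN2. All but RNF43 had a mean under 100 counts, and in that range of counts 12.1% of all genes were at least 2-fold lower and 5.37% at least 2-fold higher. Of the 11 members there, 5 were lower and 0 higher. For 3 of the 6 lower members (WNT11, SFRP4 and AXIN2) the PKP2 sample held under 10 counts, so these reached the minimum only through the vector sample. Among the 29 members from 100 counts upward 1 was lower and 0 higher, against 1.8% and 1.38% of all such genes. The median ratio of the 40 members was -0.10, against -0.03 over all tested genes, and 27 of the 40 (67.5%) were below 0, against 52.7% of all tested genes. The counting interval lay wholly below 0 for 17 members and wholly above 0 for 8. Over all tested genes these shares were 28.8% and 25.9%. A lower level in a bulk sample can come from fewer cells with the RNA or less of it per cell, which cannot be told apart here.

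Only RNF43 had a counting interval wholly beyond 2-fold. With 0.5 CPM added to each value, a step that pulls the ratios of scarce genes towards 0, 3 members stayed at least 2-fold lower (RNF43, SFRP4 and WNT11), and with 5 CPM added only RNF43 did. Of all 15991 tested genes, 393 were at least 2-fold lower with 0.5 CPM added and 81 with 5 CPM added, in place of 737.

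**Figure D1:**
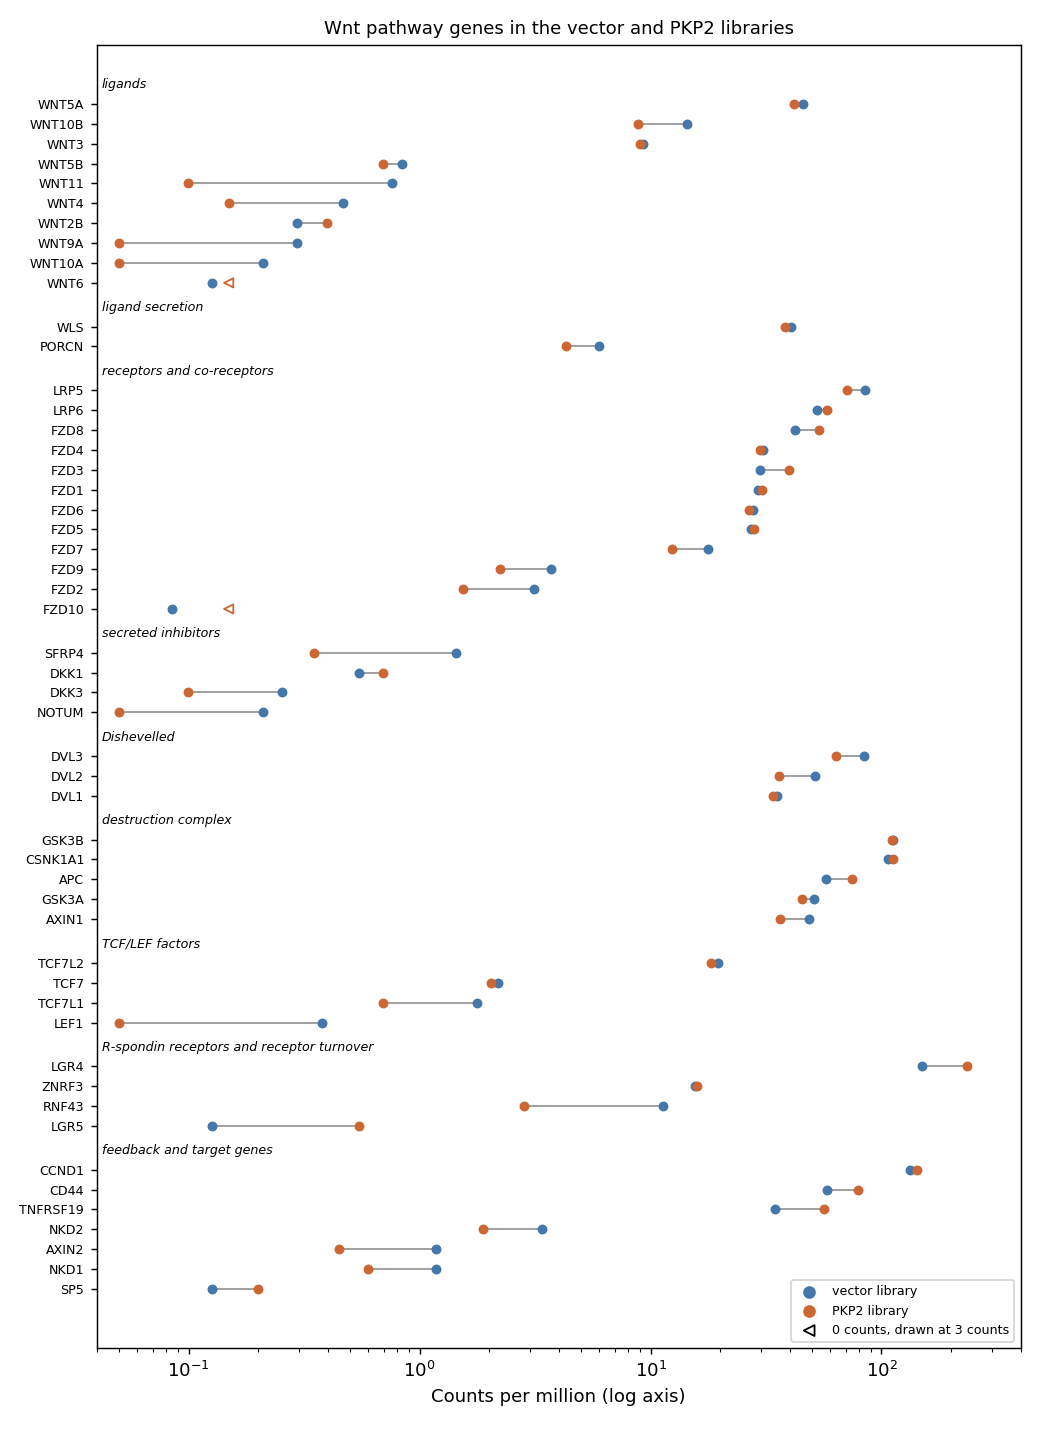
CPM (log axis) of all 51 members, grouped by role, in the vector sample (blue) and the PKP2 library (orange), with 1 library per group and lines joining the 2 values of a gene. Among measured members the widest gaps are at WNT11 (0.759 and 0.0993 CPM), SFRP4 (1.43 and 0.348) and RNF43 (11.3 and 2.83); CPM is not per length, so positions of different genes are not a comparison of levels, and WNT6 and FZD10 at 0 in the PKP2 sample are drawn at the 3-count floor.

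Of the Wnt ligands, 10 were listed and 5 reached the minimum, all 5 with ratios below 0, as were 52.7% of all tested genes. WNT5A, best known for beta-catenin-independent signalling, had 1085 counts in the vector sample and 839 in the PKP2 sample, for a ratio of -0.13 (interval -0.27 to -0.003). WNT10B, a ligand of the beta-catenin branch, had 340 and 178 counts, for a ratio of -0.70 (interval -0.97 to -0.43). WNT3, another ligand of that branch, had 220 and 182 counts, for a ratio of -0.04 whose interval of -0.33 to 0.25 takes in 0. With the GC correction described further on, WNT10B was at -0.41 and WNT5A at -0.28, both outside their counting intervals, so their sizes depend on that step and their direction did not.

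Among the rarer ligands WNT11 (ENSG00000085741) had 18 counts in the vector sample and 2 in the PKP2 sample, for a ratio of -2.93 with an interval of -6.08 to -0.87. Its mean is exactly the minimum of 10. WNT5B had 20 and 14 counts (interval -1.38 to 0.78). Under the minimum, WNT4 had 11 and 3 counts, WNT2B 7 and 8, WNT9A 7 and 1 and WNT10A 5 and 1, and WNT6 had 3 and 0, both at or under the floor of 3 counts that a count of 0 allows. Only for WNT11, WNT10B and WNT5A among the ligands did the interval leave out 0.

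Per kilobase of transcript, in TPM (counts over transcript length, scaled to a fixed sum per library), WNT5A led in both libraries. Its level was 16.0 TPM (Poisson interval 15.05 to 17.0) in the vector sample and 15.0 TPM (14.0 to 16.0) in the PKP2 sample. WNT10B followed at 13.6 TPM (12.2 to 15.1), which overlaps the interval of WNT5A, and at 8.64 TPM (7.42 to 10.0), which does not. WNT3 came next at 5.97 and 5.99 TPM. As a share of all WNT counts within a library, which needs no scaling between libraries, WNT10B made up 19.8% (95% Clopper-Pearson interval 18.0 to 21.8) in the vector sample and 14.5% (12.6 to 16.6) in the PKP2 sample. Such shares are not corrected for GC content, which is 59.4% for WNT10B and 42.3% for WNT5A.

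Both genes of ligand secretion were within 2-fold. PORCN, the acyltransferase that attaches the lipid to Wnt proteins, had 142 and 87 counts, for a ratio of -0.47 (interval -0.87 to -0.08). WLS, the carrier that brings Wnt proteins to the cell surface, had 962 and 766 counts, for a ratio of -0.09 (interval -0.23 to 0.05).

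The Frizzled receptors went both ways, with 4 of 9 measured genes above 0 and 5 below and a median ratio of -0.04. FZD8 was higher in the PKP2 sample, at 1001 and 1077 counts and a ratio of 0.34 (interval 0.22 to 0.47), and so was FZD3, at 709 and 804 counts and a ratio of 0.42 (interval 0.27 to 0.57). FZD7 had 421 and 250 counts, for a ratio of -0.52 (interval -0.75 to -0.29). The least counted of the 9, FZD2 and FZD9, were also lower. FZD2 (ENSG00000180340) had 74 and 31 counts, for a ratio of -1.02 (interval -1.67 to -0.40), and FZD9 had 88 and 45, for a ratio of -0.73 (interval -1.28 to -0.20). FZD1 (694 and 611 counts), FZD4 (729 and 601), FZD5 (648 and 564) and FZD6 (659 and 540) had ratios between -0.05 and 0.05, each with 0 inside its interval. FZD10 had 2 and 0 counts, both under the floor.

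Ordered per kilobase, FZD8 stood first in both libraries, at 22.6 TPM (Poisson interval 21.2 to 24.05) and 29.5 TPM (27.8 to 31.3), and FZD6 second, at 15.8 and 15.7 TPM. In the vector library FZD7 (9.93 TPM), FZD1 (9.07), FZD4 (8.98) and FZD5 (8.79) followed, and neighbours in that order had overlapping intervals. FZD3 came next at 4.70 TPM, then FZD9 at 3.42 and FZD2 at 3.19, which overlap. In the PKP2 library FZD7, at 7.15 TPM, stood after FZD1, FZD5 and FZD4, and its interval (6.29 to 8.10) overlapped that of FZD3 (6.02 to 6.92). FZD8 made up 19.9% of Frizzled counts (18.8 to 21.1) in the vector sample and 23.8% (22.6 to 25.1) in the PKP2 sample. FZD7 went from 8.38% (7.63 to 9.18) to 5.53% (4.88 to 6.23). Summed over the family, the Frizzled counts had a ratio of 0.08. FZD4 shares 20.5% of its 31-base stretches with another listed gene, which makes its count less certain.

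The co-receptors were on opposite sides of 0. LRP5 had 2019 and 1432 counts, for a ratio of -0.26 (interval -0.36 to -0.16), and LRP6 had 1243 and 1172, for a ratio of 0.15 (interval 0.04 to 0.27). LRP5 held 61.9% of their counts in the vector sample (60.2 to 63.6) and 54.99% in the PKP2 sample (53.1 to 56.9). Their transcripts differ in GC content, 62.8% for LRP5 and 40.2% for LRP6, and after the correction for GC content given further on the ratios were 0.16 and -0.04.

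Secreted inhibitors were scarce in both libraries. SFRP4 (ENSG00000106483), a decoy that holds a Frizzled-like domain, had 34 and 7 counts, for a ratio of -2.04 (interval -3.46 to -0.85). DKK1, which blocks the LRP co-receptors, had 13 and 14 counts, for a ratio of 0.34 (interval -0.85 to 1.55). Under the minimum, DKK3 had 6 and 2 counts and NOTUM, an enzyme that removes the lipid of Wnt proteins, 5 and 1. The value of SFRP4 rests on the 7 counts of the PKP2 sample, and the gene reached the minimum through the vector sample.

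**Figure D2:**
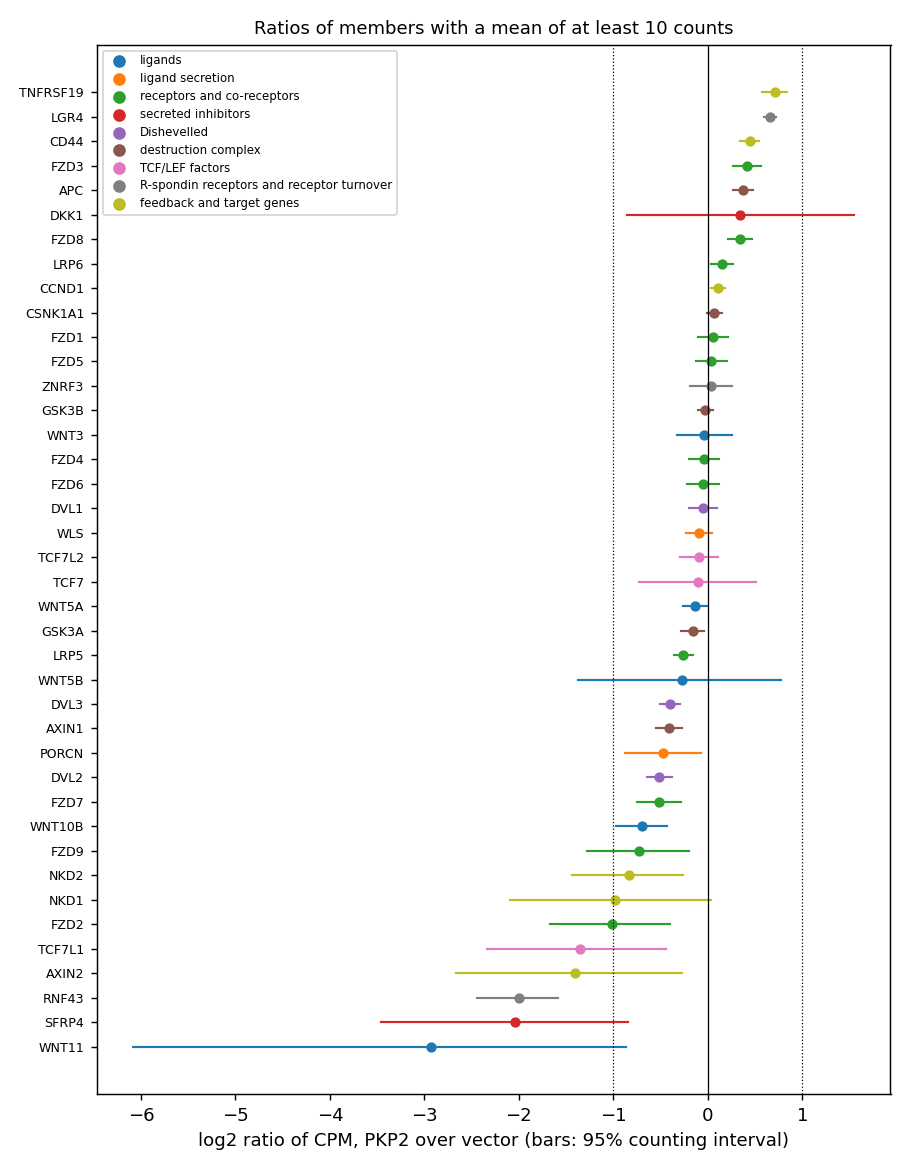
Log2 ratio of CPM, PKP2 library over vector library, for the 40 members at or above the minimum of 10 counts, with bars for the 95% counting interval, colours for roles and dotted lines at 2-fold. From TNFRSF19 at 0.71 to WNT11 at -2.93, the 6 members beyond the lower line are WNT11, SFRP4, RNF43, AXIN2, TCF7L1 and FZD2, and no member lies beyond the upper line.

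The Dishevelled genes, which relay the signal from Frizzled, were all below 0, as were 52.7% of all tested genes. Their transcripts are GC-rich, at 65.5% for DVL1, 60.3% for DVL2 and 56.8% for DVL3. Of 3300 well-counted genes (mean from 100 counts upward) in the GC range from 55%, 87.3% were below 0. DVL2 had 1223 and 727 counts, for a ratio of -0.51 (interval -0.65 to -0.38), and DVL3 had 1989 and 1278, for a ratio of -0.40 (interval -0.50 to -0.30). DVL1 had 834 and 683 counts, for a ratio of -0.05 (interval -0.20 to 0.10). In the vector library DVL2 (36.9 TPM) and DVL3 (33.9 TPM) stood above DVL1 (25.9 TPM). In the PKP2 library the 3 genes were at 26.6, 26.4 and 25.8 TPM with overlapping intervals. DVL1 thus went from 20.6% of Dishevelled counts (19.4 to 21.9) to 25.4% (23.8 to 27.1). With the GC correction DVL1 was at 0.48, DVL2 at -0.20 and DVL3 at -0.20.

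The 5 genes of the destruction complex lay within 2-fold. APC, a large tumour suppressor that binds beta-catenin in it, had 1371 and 1507 counts, for a ratio of 0.37 (interval 0.27 to 0.48). AXIN1, the scaffold on which the complex assembles, had 1148 and 734, for a ratio of -0.41 (interval -0.54 to -0.27), and 0.03 with the GC correction. GSK3B, one of the kinases that phosphorylate beta-catenin, had 2670 and 2226 counts, for a ratio of -0.03, and its close relative GSK3A had 1206 and 916, for a ratio of -0.16 (interval -0.29 to -0.04). CSNK1A1, the priming kinase, had 2536 and 2258 counts, for a ratio of 0.07 (interval -0.01 to 0.15), but shares 38.0% of its 31-base stretches with another listed gene. It also overlaps exons of ENSG00000230551 on the same strand, a gene with 2227 and 2491 counts, and the sum of both had a ratio of 0.23, outside the interval of CSNK1A1. Before GC correction the intervals of APC, AXIN1 and GSK3A left out 0. CTNNB1, the gene of beta-catenin itself and no member, had 4391 and 3690 counts, for a ratio of -0.01 (interval -0.08 to 0.05). The order of GSK3A and GSK3B per kilobase rests on the transcript chosen, since GSK3A made up 25.2% of their summed level in the vector sample with principal transcripts and 49.7% with the longest.

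TCF7L2 was the main TCF/LEF factor in both libraries, with 465 and 369 counts and a ratio of -0.10 (interval -0.30 to 0.10). It stood at 11.1 TPM in the vector sample and 10.7 TPM in the PKP2 sample, 78.2% and 84.0% of the summed level of the 4 genes. TCF7 had 52 and 41 counts, for a ratio of -0.11 (interval -0.73 to 0.51). TCF7L1 (ENSG00000152284), which acts mostly as a repressor, had 42 and 14 counts, for a ratio of -1.35 (interval -2.34 to -0.45). It made up 7.39% of TCF/LEF counts (5.38 to 9.86) in the vector sample and 3.29% (1.81 to 5.47) in the PKP2 sample, intervals that overlap. LEF1, mostly an activator, had 9 counts in the vector sample and 1 in the PKP2 sample, under the minimum. The lower values were thus at the 2 genes of the family with the fewest counts, and the most abundant one was within counting error of 0.

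Among members counted at a mean of 100 or more, the largest gap was at RNF43 (ENSG00000108375), a membrane ubiquitin ligase that removes Frizzled receptors from the cell surface. It had 269 counts in the vector sample and 57 in the PKP2 sample, 4.01-fold lower, for a ratio of -2.00 (interval -2.44 to -1.58), and -1.96 with the GC correction. ZNRF3, its close relative with the same role, had 368 and 320 counts, for a ratio of 0.03 (interval -0.19 to 0.26). RNF43 made up 42.2% of the counts of the pair in the vector sample (38.4 to 46.2) and 15.1% in the PKP2 sample (11.7 to 19.1). These shares need neither a transcript length nor a scaling between libraries, and their intervals do not overlap. Per kilobase the share depends on the transcript chosen for ZNRF3, at 27.4% and 8.42% with principal and 47.3% and 18.0% with longest transcripts. RNF43 overlaps exons of SUPT4H1 on the same strand and of TSPOAP1-AS1 on the other strand, and the use of strand in counting is not given. RNF43 shares 20.5% of its 31-base stretches with another listed gene. SUPT4H1, a transcription elongation factor, had 1243 and 990 counts, for a ratio of -0.09. The sum of RNF43 and SUPT4H1 had a ratio of -0.29, but SUPT4H1 holds most of that sum, so it does not measure RNF43. How shared reads were assigned is not given in the sources used here. Its part in the RNF43 ratio was not tested and cannot be told apart from a difference in RNF43.

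Of the R-spondin receptors, which hold RNF43 and ZNRF3 in check when R-spondin is bound, LGR4 was the highest member of its role. LGR4 (ENSG00000205213) had 3538 and 4734 counts, for a ratio of 0.66 (interval 0.59 to 0.72), or 149 and 235 CPM, and stood at 61.8 and 100.4 TPM. LGR5, a stem cell marker in gut epithelium, had 3 and 11 counts, for a ratio of 2.11 (interval 0.19 to 4.59) under the minimum of 10. LGR4 held 99.9% of their counts in the vector sample and 99.8% in the PKP2 sample. The ligand gene RSPO3, from the wider list given below, had 1100 and 1028 counts, for a ratio of 0.14 (interval 0.01 to 0.26). RSPO2, looked up after its values were seen, had 322 and 155 counts, for a ratio of -0.82 (interval -1.10 to -0.54).

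In the role of feedback and target genes AXIN2 alone was past 2-fold. AXIN2 (ENSG00000168646) had 28 and 9 counts, for a ratio of -1.40 (interval -2.67 to -0.28), and reached the minimum through the vector sample. NKD1 had 28 and 12, for a ratio of -0.99 (interval -2.10 to 0.04), and NKD2 had 80 and 38, for a ratio of -0.84 (interval -1.43 to -0.26). AXIN2 is a scaffold that can stand in for AXIN1, and the Naked proteins NKD1 and NKD2 bind Dishevelled. The interval of NKD1 takes in 0, and NKD2 was at -0.22 with the GC correction. Over all genes with a mean from 10 to under 100 counts, the range of these 3, the median ratio was -0.15 and 59.9% were below 0. AXIN2 made up 2.38% of Axin counts in the vector sample (1.59 to 3.42) and 1.21% in the PKP2 sample (0.56 to 2.29), intervals that overlap.

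The 3 best counted genes of this role, TNFRSF19, CD44 and CCND1, had ratios above 0. TNFRSF19 (ENSG00000127863), a TNF receptor family member, had 820 and 1136 counts, for a ratio of 0.71 (interval 0.58 to 0.84), the highest among the 40. CD44, the hyaluronan receptor, had 1382 and 1593 counts, for a ratio of 0.44 (interval 0.34 to 0.55). CCND1, which encodes cyclin D1, had 3150 and 2877 counts, for a ratio of 0.11 (interval 0.03 to 0.18). SP5, a transcription factor gene that responds directly to beta-catenin in many cell types, had 3 and 4 counts. APCDD1 and ASCL2 were looked for and are not among the listed genes. Of the 6 measured genes in this role 3 were above 0 and 3 below. Over all genes from a mean of 1000 counts, which CD44 and CCND1 reached, the median ratio was 0.06 and 42.1% were below 0. TNFRSF19 came just short of that mean. In its own range, from 100 to under 1000 counts, the median ratio over all genes was -0.05 and 55.6% were below 0.

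TCF/LEF factors bind words with the core CTTTGAT or CTTTGAA. These were searched on both strands in RefSeq promoter windows of 300 bases (250 before to 50 after the annotated start, GRCh38.p14), which the table gave for 36 of the 51 members in 48 windows. A word was present for 2 of the 36 genes, SP5 and DKK1, a share of 5.56%, against 6.20% of 11834 listed protein-coding genes counted the same way, with a word in any window of the gene. By window the shares were 4.17% of the 48, 4.55% of 17309 windows of listed protein-coding genes and 6.86% of all 35116 windows. The windows of SP5 and DKK1 are shown because they hold the words, and the pair of RNF43 windows, from 2 annotated starts, because RNF43 had the largest well-counted gap. Capitals mark the words, with TTCAAAG being CTTTGAA read on the other strand. A match is a description of the letters and no evidence of binding.
SP5 (chr2:170715087-170715386, + strand): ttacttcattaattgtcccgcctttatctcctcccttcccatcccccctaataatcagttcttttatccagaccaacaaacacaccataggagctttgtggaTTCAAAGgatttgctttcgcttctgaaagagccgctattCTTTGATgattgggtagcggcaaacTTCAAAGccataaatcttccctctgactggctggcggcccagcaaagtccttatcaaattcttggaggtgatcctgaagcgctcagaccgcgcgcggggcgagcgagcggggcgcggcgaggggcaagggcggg
DKK1 (chr10:52314031-52314330, + strand): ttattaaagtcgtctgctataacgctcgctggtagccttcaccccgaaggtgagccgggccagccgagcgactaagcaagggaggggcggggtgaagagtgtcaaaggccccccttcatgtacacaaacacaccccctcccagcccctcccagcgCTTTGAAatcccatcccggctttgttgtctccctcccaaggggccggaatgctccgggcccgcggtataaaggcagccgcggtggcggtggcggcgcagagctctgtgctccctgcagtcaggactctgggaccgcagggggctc
RNF43, first start (chr17:58417485-58417784, - strand): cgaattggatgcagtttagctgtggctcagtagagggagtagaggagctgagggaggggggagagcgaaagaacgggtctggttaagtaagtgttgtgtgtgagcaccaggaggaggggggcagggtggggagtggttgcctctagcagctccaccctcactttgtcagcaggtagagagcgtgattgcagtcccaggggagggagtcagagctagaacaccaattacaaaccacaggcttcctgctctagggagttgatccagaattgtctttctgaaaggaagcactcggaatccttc
RNF43, second start (chr17:58402672-58402971, - strand): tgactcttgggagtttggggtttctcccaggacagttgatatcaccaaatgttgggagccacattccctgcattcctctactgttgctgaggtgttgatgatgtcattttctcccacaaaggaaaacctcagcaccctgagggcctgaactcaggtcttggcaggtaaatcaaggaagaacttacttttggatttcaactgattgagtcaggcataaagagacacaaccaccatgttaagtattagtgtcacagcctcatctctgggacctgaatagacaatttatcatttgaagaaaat
SP5 holds 3 words, starting 148, 109 and 84 bases before the annotated start, and DKK1 holds 1, starting 95 bases before it. Both genes were scarce in both libraries, SP5 at 3 and 4 counts and DKK1 at 13 and 14, while neither RNF43 window holds a word.

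**Figure D3:**
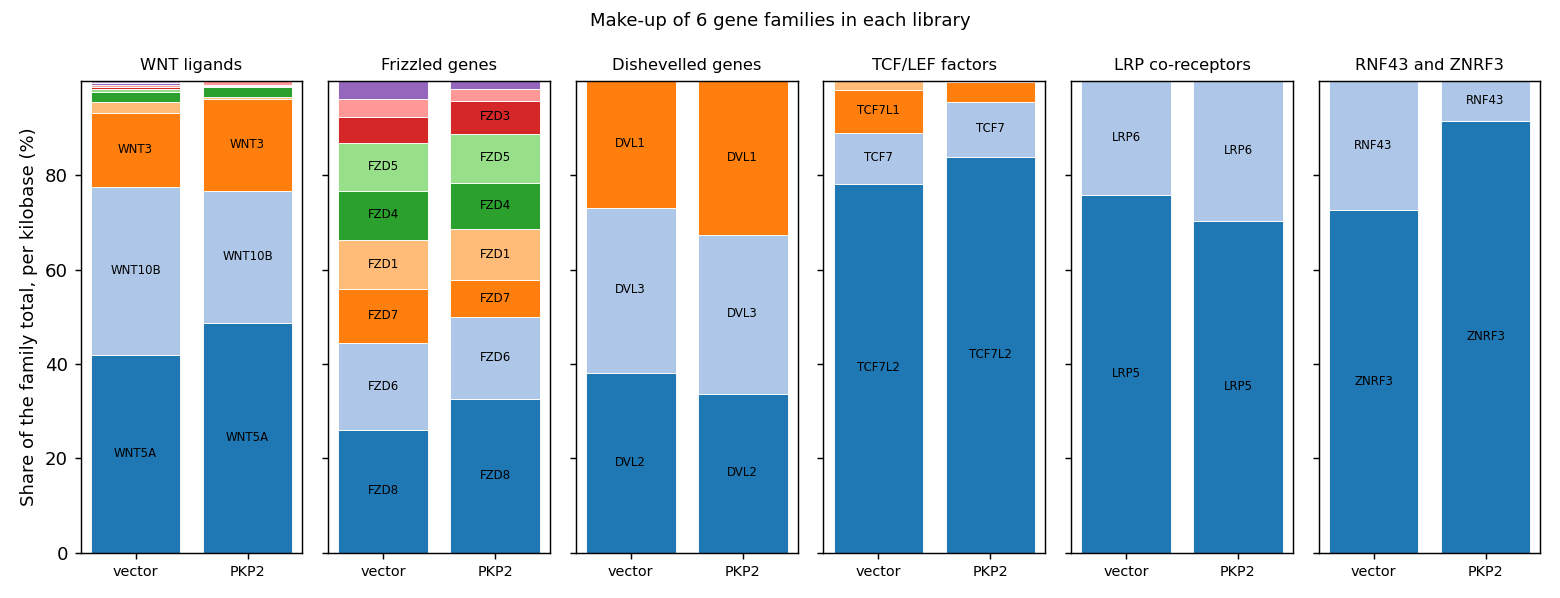
Share (%) of each family's summed level per kilobase held by each gene, in the vector and PKP2 libraries (1 library each), for 6 families. With the principal transcripts plotted, RNF43 took 27.4% of its pair in the vector sample and 8.42% in the PKP2 sample (47.3% and 18.0% with the longest), FZD8 took 26.1% and 32.6% of the Frizzled level, and TCF7L2 took 78.2% and 84.0% of the TCF/LEF level.

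A wider list of pathway genes was set beside the members. Of its 113 listed genes 99 reached that minimum, with 3 at least 2-fold lower, 3 at least 2-fold higher and a median ratio of -0.04. Over all tested genes 4.61% were lower and 2.47% higher by that measure, and 3 of 99 (3.03%) is near that background in both directions. All 16 genes of beta-catenin and its destruction lay within 2-fold (median 0.03). The best counted there beside CTNNB1 was USP34, a deubiquitinase that acts on axin, with 4426 and 4400 counts and a ratio of 0.23. All 20 nuclear partners were within 2-fold (median -0.06), among them the kinase gene HIPK2, at 9705 and 9093 counts and a ratio of 0.14, and RUVBL1, an ATPase of chromatin complexes, at 5284 and 4719 counts and a ratio of 0.07. All 9 measured extracellular modulators were within 2-fold too (median -0.00), including SDC1, the heparan sulphate proteoglycan syndecan 1, at 2461 and 1885 counts.

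Of 25 measured genes of the beta-catenin-independent branch, 3 were at least 2-fold lower and 1 higher (median -0.10), against 4.61% and 2.47% of all tested genes. The planar cell polarity genes VANGL1 and VANGL2, which encode paralogous membrane proteins, were both lower. VANGL1 had 2537 counts in the vector sample and 919 in the PKP2 sample, for a ratio of -1.23 (interval -1.34 to -1.12), and VANGL2 had 32 and 6, for a ratio of -2.18 (interval -3.73 to -0.90). VANGL2 reached the minimum of 10 counts only through the vector sample, so its value rests on the 6 counts of the PKP2 sample. PRICKLE1, whose product works with Vangl proteins, had 572 and 971 counts, for a ratio of 1.00 (interval 0.85 to 1.15), and shares 24.5% of its 31-base stretches with another listed gene. NFATC4, a calcium-responsive transcription factor, had 554 and 192 counts, for a ratio of -1.29 (interval -1.54 to -1.05). The best counted of this branch, MAPK9 (0.16) and NFATC3 (-0.02), were near 0. NFATC3 shares 34.1% of its 31-base stretches with another listed gene and overlaps exons of ENSG00000263276 on the same strand. With the GC correction VANGL1 was at -1.32 and VANGL2 at -2.07, while NFATC4 at -0.999 and PRICKLE1 at 0.93 no longer reached 2-fold.

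Of 29 measured further target genes, 2 were at least 2-fold higher and 0 lower, with a median of -0.00, against the same 2.47% and 4.61%. SOX9, a transcription factor of progenitor cells, had 521 and 931 counts, for a ratio of 1.07 (interval 0.92 to 1.23) and 1.12 with the GC correction. ABCB1, a drug efflux pump, had 12 and 23 counts, for a ratio of 1.18 (interval 0.11 to 2.32). The best counted, NRCAM, a neuronal adhesion molecule, had 5816 and 7334 counts, for a ratio of 0.57, and the receptor tyrosine kinase MET had 3515 and 3862, for a ratio of 0.37. These targets, like those among the members, lay on both sides of 0, with 14 above and 15 below.

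The members' ratios went down with the GC content of their transcripts (Spearman's rho -0.54 across 40 genes, which come from the same 2 libraries and are not independent replicates), as they did across 11610 well-counted genes (rho -0.61). Of 17 members with a GC content of at least 55%, 15 were below 0, with a median ratio of -0.41, and of 8 members under 45%, 6 were above 0, with a median of 0.25. These shares are near the background over the 11610 well-counted genes (mean from 100 counts upward). There 2880 of 3300 genes with a GC content of at least 55% (87.3%) were below 0, with a median of -0.31, and 3527 of 4415 genes under 45% (79.9%) were above 0, with a median of 0.19. Members with such a mean had 8 of 10 below 0 (median -0.33) and 5 of 7 above 0 (median 0.15). A curve of the ratio over GC content, fitted to all genes from a mean of 100 counts upward, was subtracted as a second reading. The part of GC content in the ratios of single members was not tested beyond this subtraction.

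After the correction 4 members stayed at least 2-fold lower (WNT11 at -2.64, SFRP4 at -2.10, RNF43 at -1.96 and AXIN2 at -1.31) and 0 were higher, against 3.49% and 2.35% of all genes. FZD2, with a GC content of 64.9%, was at -0.51 and TCF7L1 at -0.996. FZD9, the member with the highest GC content of the 40 (68.4%), went from -0.73 to -0.07. FZD8 moved the other way, from 0.34 to 0.84, since genes with its GC content of 64.6% were mostly lower. TNFRSF19 was at 0.78, LGR4 at 0.51, CD44 at 0.36, APC at 0.17 and FZD3 at 0.11. Signs turned for 8 members with ratios near 0 or high GC content (WNT3, LRP5, LRP6, DVL1, AXIN1, CSNK1A1, GSK3A and TCF7). The median of the 40 was -0.06, against -0.01 over all genes.

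**Figure D4:**
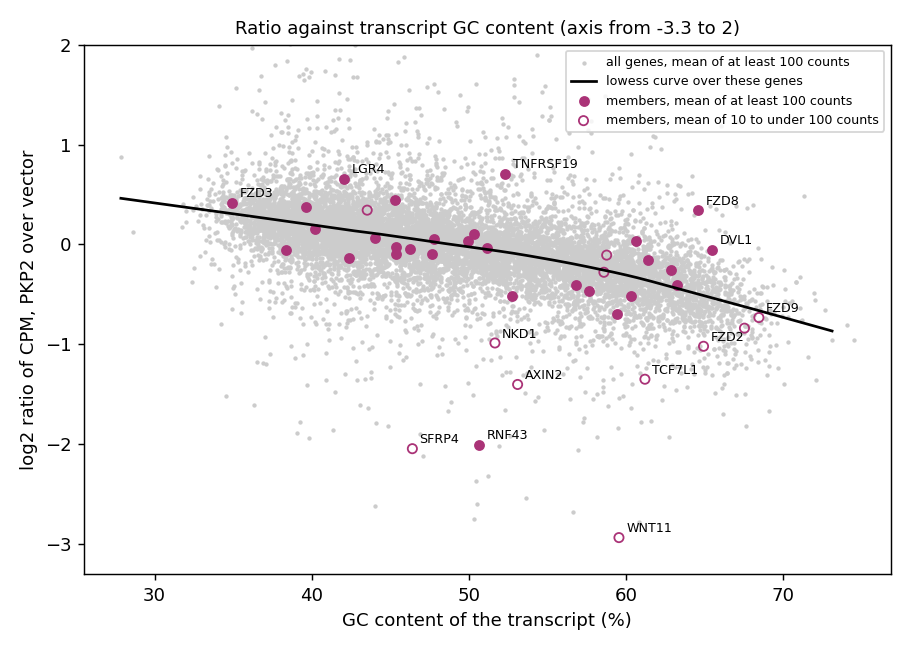
Log2 ratio of CPM, PKP2 library over vector library, against the GC content (%) of the transcript for 11610 genes counted at a mean of 100 or more (grey, 30 of them outside the axis), with the lowess curve (black) and the 40 measured members (filled from a mean of 100 counts, open below it). Most members lie near the curve, FZD8 and TNFRSF19 lie above it, and WNT11, SFRP4, RNF43 and AXIN2 lie more than 1 log2 unit below it.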

How the data were processed

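Libraries were built from total RNA with Illumina's TruSeq RNA Sample Prep Kit, per the labels. Bowtie 0.12.2 and the builds GRCh37 and hg19 are named in the submitters' processing notes. For the counting program, its annotation, its use of strand and its handling of shared reads, the entry is: not given in the sources used here. The deposited values are unnormalized counts per Ensembl gene ID, per the file headers. They are classed as estimated counts, as deposited by the authors, only because 1 damaged row holds a decimal. In each file 2 rows without a readable gene count were left out, so their share cannot be given.

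Symbols came from a table of gene names (22579 of 22965 IDs matched). Library sizes were totals times TMM factors from edgeR 4.0.16 in R 4.3.3, which served for scaling alone. The quasi-likelihood test of edgeR needs replicates to estimate the spread, so no p-value is given. A 2-fold threshold was used to describe genes that reached a mean of 10 counts. The floor of 3 counts is 0.126 CPM in the vector library and 0.149 CPM in the PKP2 library. The protocol names no molecular identifiers, and reads may be copies of 1 molecule. Intervals and floors therefore cover counting error only.

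Transcript length, GC content and shared 31-base stretches came from GENCODE release 29 by gene ID. Exon overlaps came from the exon coordinates of that release. Its gene coordinates are not printed, because its build differs from that of the files. The overlapping genes may therefore differ from those in the annotation used for counting. The APPRIS principal transcript was used, otherwise the longest. Promoter windows came from RefSeq (GRCh38.p14). The GC correction subtracted a lowess curve (fraction 0.3, statsmodels 0.14.6), and a second one the median of the 100 nearest genes in GC content and length. Steps were tested on simulated counts. Other tools were DESeq2 1.42.0 (size factors), SciPy 1.17.1, matplotlib 3.10.9, pandas 2.3.3, NumPy 2.4.6 and Python 3.11.15.

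The members, the wider list and the alternatives were chosen with earlier results of these data known. Named were all members past 2-fold, up to 4 of the highest mean count per role, members under the minimum, and, of the wider list, genes past 2-fold and the 2 highest mean counts per sub-list. Members beyond these were named so that each is accounted for. The sum with overlapping genes was added after the data were seen.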

Additional observations from a re-analysis of the deposited data

How the results depend on the processing

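The count of 6 members at least 2-fold lower was 6 with DESeq2 size factors, 7 with total counts and no TMM factor (NKD1 joined), 4 with the GC correction and 5 relative to the 100 nearest genes. It was also 5 without members that overlap a listed gene on the same strand or share at least 20% of their 31-base stretches. An overlap on the other strand alone did not remove a member there. The count of lower members was 3 with 0.5 CPM added, 1 with 5 CPM added, 12 of 49 with no filter, 2 of 32 with a mean of at least 50 counts, 10 at 1.5-fold and 3 at 3-fold. Here and below, no filter means no minimum mean count, but only genes above 0 in both libraries. This leaves out WNT6 and FZD10, at 0 in the PKP2 library, and cuts the wider list in the same way. The count of 0 members at least 2-fold higher became 1 with no filter (LGR5) and 2 at 1.5-fold (LGR4 and TNFRSF19), and was 0 in the other settings. The median of -0.10 ranged from -0.13 (no filter; -0.13 also with total counts) to -0.05 (mean of at least 50 counts). In the wider list the 3 lower genes became 1 with 5 CPM added and 7 with no filter, and the 3 higher became 1 with 0.5 CPM added and 0 with 5 CPM added. The share of TCF7L2 in the PKP2 library was 87.6% with longest transcripts, in place of 84.0%. Of the 40 single ratios, 18 left their counting interval with the GC correction, 18 relative to the nearest genes, 6 with 5 CPM added and 0 under the other scalings. The summed counts of RNF43 and SUPT4H1 had a ratio of -0.29, and those of CSNK1A1 and its overlapping gene 0.23. Both lay outside the member's own counting interval, while the sums for APC and GSK3A lay within theirs. SUPT4H1 (1243 and 990 counts) holds most of the first sum, which is therefore no reading of RNF43 (269 and 57 counts) alone. Over all 15991 tested genes the main setting gave 737 lower and 395 higher. These became 721 and 398 with DESeq2 size factors, 802 and 377 with total counts, 393 and 231 with 0.5 CPM added and 81 and 106 with 5 CPM added. With the GC correction 3.49% of all genes with a transcript were lower and 2.35% higher. For the other settings no share over all genes was computed, so their member counts have no background here. No paired analysis was possible because each group has 1 library, and no library can be left out for the same reason. Members under 100 counts have counting intervals over 1 log2 unit wide, so depth limits them most.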
